A study of Mus musculus with 12 samples.

Results

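A set of 9 genes of the myelin sheath and of the oligodendrocyte, the cell that makes it, were followed through cortex RNA of 4 mouse genotypes: Mbp, Mog, Mag, Mobp, Cnp, Mal, Cldn11, Ermn and St18. They were chosen by symbol from the 24062 gene symbols of the count table, and all 9 were among the 15440 genes with enough counts to be tested. The mice were 9 months old, with 3 libraries per genotype. WT mice carried neither mutation. Tia1+/- mice had 1 copy of the Tia1tm1Andp allele, a frame-shifted allele of the stress granule protein TIA1 that makes no protein, and PS19 mice (P301S Tia1+/+) carried a human MAPT transgene with the P301S mutation under the Prnp promoter. P301S Tia1+/- mice carried both. The Tia1 allele was on C57BL/6J, the PS19 line on a mixed B6;C3 background, and the mice came from crosses of the 2 lines. The Prnp promoter is active in many cell types, so the transgene is not a model of tau in oligodendrocytes alone. The labels do not say whether the 3 libraries of a group came from separate litters, and p values measure the spread between these libraries.

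Oligodendrocytes wrap axons in layers of membrane that fuse into compact myelin, which speeds the conduction of nerve impulses. Precursor cells persist in the adult cortex and give rise to new oligodendrocytes, which switch on a shared set of genes for myelin proteins and lipids under transcription factors that include SOX10, OLIG2 and MYRF. RNA of some myelin genes, Mbp above all, is carried into the cell processes and translated at the sheath. The 9 genes cover proteins of compact myelin (Mbp, Mobp), of the inner and outer faces of the sheath (Mag, Mog), of its cytoplasmic channels (Cnp), of membrane sorting and tight junctions (Mal, Cldn11), of the cytoskeleton (Ermn), and 1 zinc finger transcription factor, St18.

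Because SOX10 and MYRF act on many myelin genes, and because the 9 genes moved together from library to library, the bases upstream of the 4 genes with the largest differences or the lowest p values between Tia1+/- and WT mice were read from RefSeq for GRCm38.p6. The stretch shown runs 5′ to 3′ from 250 to 51 bases before the start of a RefSeq transcript, which for Cnp, Mobp and Mag is not the start of the gene in GENCODE given at the end, chr11:100574689-100574888 for Cnp and chr9:120149492-120149691 for Mobp on the plus strand, and chr7:30914914-30915113 for Mag and chr17:37023449-37023648 for Mog on the minus strand. Capitals mark the letters ACAAAG or ACAATG, the core that SOX factors bind, and CTGGCAC or CTGGTAC, the core that MYRF binds, on either strand.
Cnp: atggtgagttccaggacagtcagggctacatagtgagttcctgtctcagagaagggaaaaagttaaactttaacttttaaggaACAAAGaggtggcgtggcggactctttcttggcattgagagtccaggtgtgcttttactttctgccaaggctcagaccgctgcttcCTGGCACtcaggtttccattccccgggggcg
Mag: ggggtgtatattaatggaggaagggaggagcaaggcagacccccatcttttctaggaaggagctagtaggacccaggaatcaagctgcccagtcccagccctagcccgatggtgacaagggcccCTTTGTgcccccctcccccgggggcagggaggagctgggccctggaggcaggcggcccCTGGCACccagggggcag
Mobp: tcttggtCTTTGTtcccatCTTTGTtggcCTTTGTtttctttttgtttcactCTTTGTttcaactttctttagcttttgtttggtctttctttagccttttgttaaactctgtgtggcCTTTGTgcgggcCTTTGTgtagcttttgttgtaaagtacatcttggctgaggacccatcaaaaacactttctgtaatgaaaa
Mog: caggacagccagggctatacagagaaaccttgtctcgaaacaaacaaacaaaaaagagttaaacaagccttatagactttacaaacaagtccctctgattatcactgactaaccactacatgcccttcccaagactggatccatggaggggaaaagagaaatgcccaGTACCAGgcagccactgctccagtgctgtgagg
Cnp held ACAAAG from 167 bases before the start and CTGGCAC from 81 bases before it. Mag held both motifs as well, and Mobp held the SOX letters 6 times, each as CTTTGT, which is ACAAAG on the other strand. Only promoters with a match were shown. Another Mag promoter, chr7:30914272-30914571, held no match. Mog held GTACCAG, the other strand of CTGGTAC, from 83 bases before the start. Of the 9 genes, 7 had a promoter in the reference table, not Mbp or St18. In the window from 250 bases before to 50 bases after the start, the SOX letters were found in 4 of the 7 genes (Cnp, Ermn, Mag and Mobp) and in 28.6% of all 32851 promoters. The MYRF letters were found in 3 of the 7 (Cnp, Mag and Mog) and in 7.1% of all promoters. A gene was counted if any of its promoters matched. Counted by promoter, as in the background, 5 of the 9 promoters of these 7 genes held the SOX letters and 4 the MYRF letters. CAGCTG, an E-box of the kind that OLIG2 binds, was found in none of the 7 and in 16.3% of all promoters. A match is a run of letters and not a measured binding site.

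The counts summed to between 11978962 and 19146484 per library. Levels are given as CPM, the usual unit of counts relative to the size of the library, with library sizes scaled by TMM. For Tia1+/- and P301S Tia1+/- libraries the title and the genotype entry disagree, each entry giving the other group's genotype. Groups here follow the titles, and if the entries were right those 2 groups would change places. The Tia1 transcript cannot separate these 2 groups, since both carry 1 copy. It averaged 74.7 ± 2.76 CPM (SD, n = 3) in P301S Tia1+/-, 68.0 ± 10.3 in Tia1+/-, 73.5 ± 3.87 in PS19 and 82.0 ± 10.3 in WT mice. Mapt, the mouse tau gene, had 349 ± 11.2 CPM in P301S Tia1+/- and 434 ± 80.8 CPM in Tia1+/- mice, against 453 ± 12.2 CPM in PS19 and 346 ± 81.2 CPM in WT mice. Prnp, whose promoter drives the transgene, had 1480 ± 67.6 CPM in P301S Tia1+/- and 1527 ± 478 CPM in Tia1+/- mice, against 2100 ± 73.0 CPM in PS19 and 1638 ± 278 CPM in WT mice. Neither mean was higher in P301S Tia1+/- than in Tia1+/- mice, and both genes overlapped between the 2 groups. Xist, transcribed from the inactive X chromosome of females, was at most 0.783 CPM in WT and PS19 libraries and between 217 and 367 CPM in all 6 libraries of the Tia1+/- and P301S Tia1+/- groups, whereas the methods describe males. Thus the Tia1 label and the Xist level cannot be told apart wherever Tia1+/- or P301S Tia1+/- mice are compared with WT or PS19 mice. Genes of the olfactory bulb, which is not cortex, summed to 1023 CPM in WT replicate 1 and to between 634 and 780 CPM in the 3 P301S Tia1+/- libraries, but to between 5.92 and 146 CPM in the other 8. Genes of striatal neurons summed to 1674 CPM in Tia1+/- replicate 3 and to between 106 and 294 CPM elsewhere, and the ribosomal RNA gene Rn45s took 2.71% of the counts of PS19 replicate 2 and at most 1.03% of any other library. These 3 libraries (WT replicate 1, Tia1+/- replicate 3 and PS19 replicate 2) were also left out together, and the results without them are given with each comparison. That fit kept all 3 P301S Tia1+/- libraries with their high olfactory bulb genes.

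The 9 genes together took between 0.102% and 0.288% of the counts of a library, or from 976 CPM in WT replicate 1 to 2981 CPM in Tia1+/- replicate 1. Per kilobase of exon, over all 12 libraries, Mbp had the highest level with 134 CPM per kb, followed by Mal with 60.3, Cnp with 57.1, Cldn11 with 39.1, Mobp with 25.4, Mag with 23.3, Mog with 18.97 and Ermn with 17.3. St18 was far lower, with 1.41 CPM per kb.

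**Figure D1:**
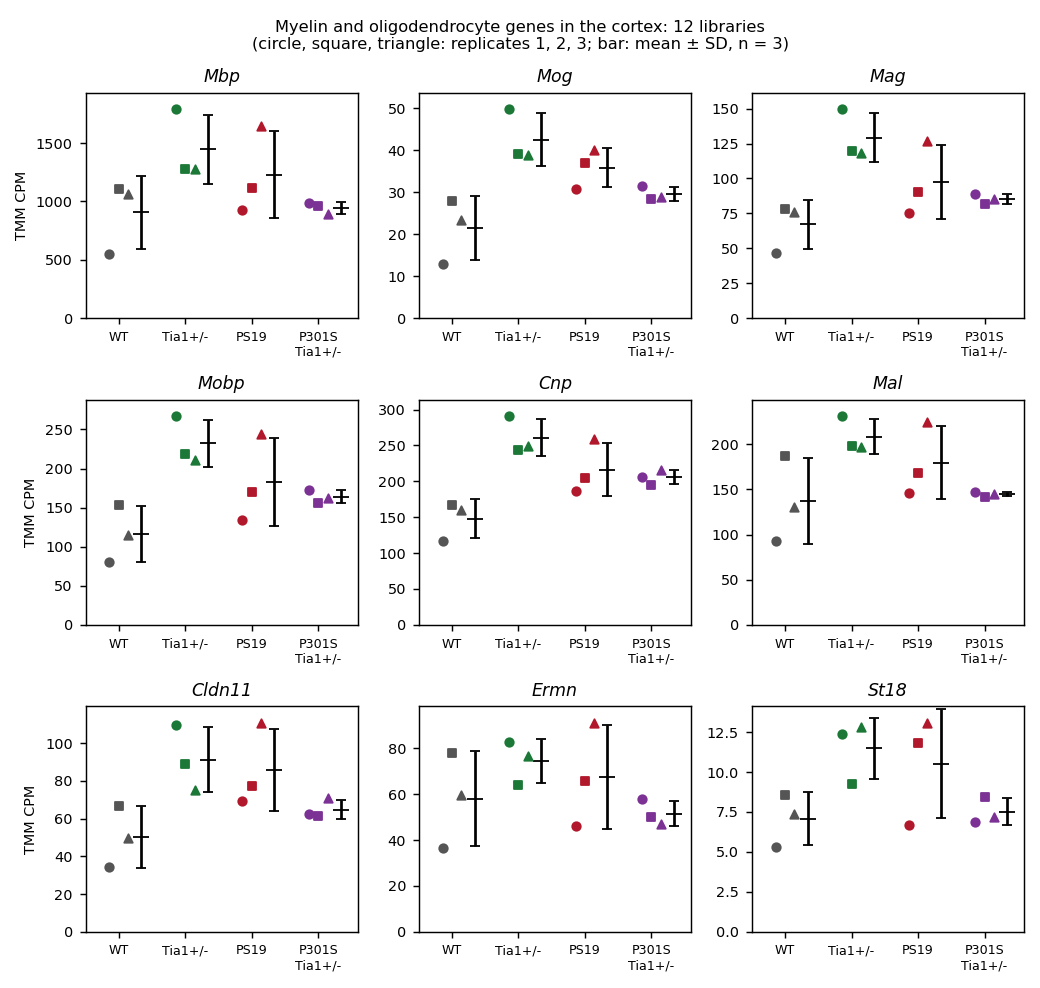
Level of each of the 9 genes in every library, in CPM on a linear axis that starts at 0, with 1 panel per gene and the 4 genotype groups side by side. Points are libraries (circle, square and triangle for replicates 1, 2 and 3) and bars are the mean ± SD (n = 3). WT replicate 1 is the lowest point of all 9 panels, and the P301S Tia1+/- points lie close together.

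Mbp encodes myelin basic protein, which holds the cytoplasmic faces of the membrane layers together. Its level was 549, 1108 and 1061 CPM in WT libraries and 1788, 1276 and 1274 CPM in Tia1+/- libraries. PS19 libraries had 922, 1118 and 1650 CPM of Mbp, and P301S Tia1+/- libraries 984, 957 and 890 CPM. All 3 Tia1+/- libraries were above all 3 WT libraries, while PS19 replicate 3 reached into the Tia1+/- range and the P301S Tia1+/- libraries lay within the WT range. Mobp encodes another basic protein of compact myelin. It had 80.8, 153 and 115 CPM in WT and 267, 218 and 211 CPM in Tia1+/- libraries. In PS19 libraries the Mobp level was 135, 170 and 244 CPM, and in P301S Tia1+/- libraries 173, 156 and 163 CPM. Here the P301S Tia1+/- libraries all exceeded the WT libraries, by a small margin.

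Mag encodes myelin-associated glycoprotein, which faces the axon on the innermost layer, and Mog encodes a glycoprotein of the outermost layer that is a target of antibodies in demyelinating disease. Mag was at 46.8, 78.4 and 76.0 CPM in WT, and at 149, 120 and 118 CPM in Tia1+/- libraries. It was at 75.1, 90.1 and 127 CPM in PS19, and at 88.8, 81.9 and 85.3 CPM in P301S Tia1+/- libraries. Mag thus did not overlap between Tia1+/- and WT mice, and it did overlap between PS19 and each of the other 3 groups. Mog had the widest span of the 9 genes, 3.83-fold from its lowest to its highest library. It was at 13.0, 27.9 and 23.3 CPM in WT and at 49.7, 39.0 and 38.9 CPM in Tia1+/- libraries. The PS19 libraries had 30.7, 36.8 and 39.9 CPM of Mog and the P301S Tia1+/- libraries 31.4, 28.4 and 28.9 CPM. For Mog alone of these 4 genes, the PS19 libraries were all above the WT libraries as well.

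Cnp encodes 2′,3′-cyclic nucleotide 3′-phosphodiesterase, an enzyme of the cytoplasmic channels of the sheath that serves as a marker of oligodendrocytes. Its level was 117, 167 and 160 CPM in WT, and 291, 244 and 249 CPM in Tia1+/- libraries. PS19 libraries had 187, 204 and 258 CPM and P301S Tia1+/- libraries 206, 195 and 215 CPM of Cnp. All 9 libraries with a mutation were above all 3 WT libraries. Cldn11, the claudin of the tight junctions between the layers of myelin, was at 34.2, 66.9 and 49.7 CPM in WT and at 110, 89.0 and 75.3 CPM in Tia1+/- libraries. It was at 69.2, 77.6 and 111 CPM in PS19 and at 62.5, 61.3 and 70.7 CPM in P301S Tia1+/- libraries. The PS19 and the Tia1+/- libraries of Cldn11 were all above the WT libraries, and the P301S Tia1+/- libraries overlapped with them.

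Mal, a proteolipid of membrane sorting, ranged from 142 to 147 CPM in P301S Tia1+/-, from 146 to 225 CPM in PS19, from 197 to 231 CPM in Tia1+/- and from 93.0 to 187 CPM in WT libraries. Ermn encodes ermin, a protein of the oligodendrocyte cytoskeleton, and behaved differently from the rest. It had 36.6, 78.2 and 59.5 CPM in WT and 82.9, 64.0 and 76.5 CPM in Tia1+/- libraries, which overlapped. PS19 libraries had 46.0, 65.6 and 91.1 CPM of Ermn, and P301S Tia1+/- libraries between 47.0 and 57.7 CPM. St18 had the lowest counts of the 9, between 6.85 and 8.46 CPM in P301S Tia1+/-, 6.65 and 13.1 CPM in PS19, 9.26 and 12.8 CPM in Tia1+/- and 5.28 and 8.54 CPM in WT libraries.

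In 8 of the 9 genes the group means rose in the order WT, P301S Tia1+/-, PS19, Tia1+/-. Ermn was the exception, with P301S Tia1+/- below WT. Neighbours in this order were mostly not separated: PS19 and Tia1+/- libraries overlapped in all 9 genes, as did P301S Tia1+/- and PS19 libraries, and WT and P301S Tia1+/- libraries overlapped in 5. The spread within a group differed as well. The median coefficient of variation over the 9 genes was 32.6% in WT, 27.3% in PS19, 13.5% in Tia1+/- and 5.15% in P301S Tia1+/- mice. In bulk RNA, fewer oligodendrocytes and less RNA per oligodendrocyte cannot be told apart.

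To ask what the loss of 1 Tia1 copy did without the tau transgene, Tia1+/- mice were compared with WT mice. All 9 genes were higher in Tia1+/- mice, as were 50.7% of all genes, by log2 fold changes from 0.36 for Ermn to 0.999 for Mobp, with a median of 0.82, against a median of 0.0057 over all 15440 genes. Only Cnp passed the test. It rose by 0.82 on the log2 scale (SE 0.151, adjusted p = 0.0446, edgeR quasi-likelihood test with Benjamini-Hochberg adjustment over all genes tested), and 0.712% of all genes were called in this comparison, with 0.272% of all genes called as higher. With 1 library left out, the share of all genes called ran from 0.0509% without Tia1+/- replicate 1 to 3.16% without WT replicate 3. The adjusted p of Cnp was close to the threshold, and Cnp was no longer called in 10 of the 12 fits that each left out 1 library, all but those without WT replicate 3 or PS19 replicate 3, nor in the fit of only the 6 libraries compared. Mobp (log2 fold change 0.999, adjusted p = 0.0751), Mog (0.99, 0.0685), Mag (0.95, 0.0678) and Cldn11 (0.86, 0.0994) missed the threshold, and the adjusted p of the other 4 genes was between 0.171 and 0.509 in edgeR. The unadjusted p was under 0.05 in 8 of the 9 genes, with the exception of Ermn, as in 8.63% of all genes in this direction. The same 8 genes did not overlap between the 2 groups, as in 9.6% of all genes in this direction. With DESeq2 in place of edgeR, Cnp, Mog, Mag, Mobp and Cldn11 passed, and 6.59% of all genes did.

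Other tissue genes moved with this comparison. The 7 striatal genes tested were all higher in Tia1+/- mice, with a median log2 fold change of 2.68, none of them called. Their sum was 1674 CPM in Tia1+/- replicate 3. It was 120 CPM in Tia1+/- replicate 1, 126 CPM in replicate 2 and between 116 and 294 CPM in WT libraries. Olfactory bulb genes were lower in Tia1+/- libraries, at 7.59, 6.57 and 128 CPM in sum, than in WT libraries, at 1023, 146 and 35.1 CPM. The library with the highest sum, WT replicate 1, was the lowest of all 12 libraries in each of the 9 myelin genes. Without it, all 9 genes were still higher in Tia1+/- mice, with a median log2 fold change of 0.66, and none passed, against 0.16% of all genes. Without all 3 libraries named above, the median was 0.71, and Mog and Cnp passed, as did 1.28% of all genes. All Tia1+/- libraries had high Xist and no WT library did, so a difference in sex and the Tia1 label cannot be told apart.

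**Figure D2:**
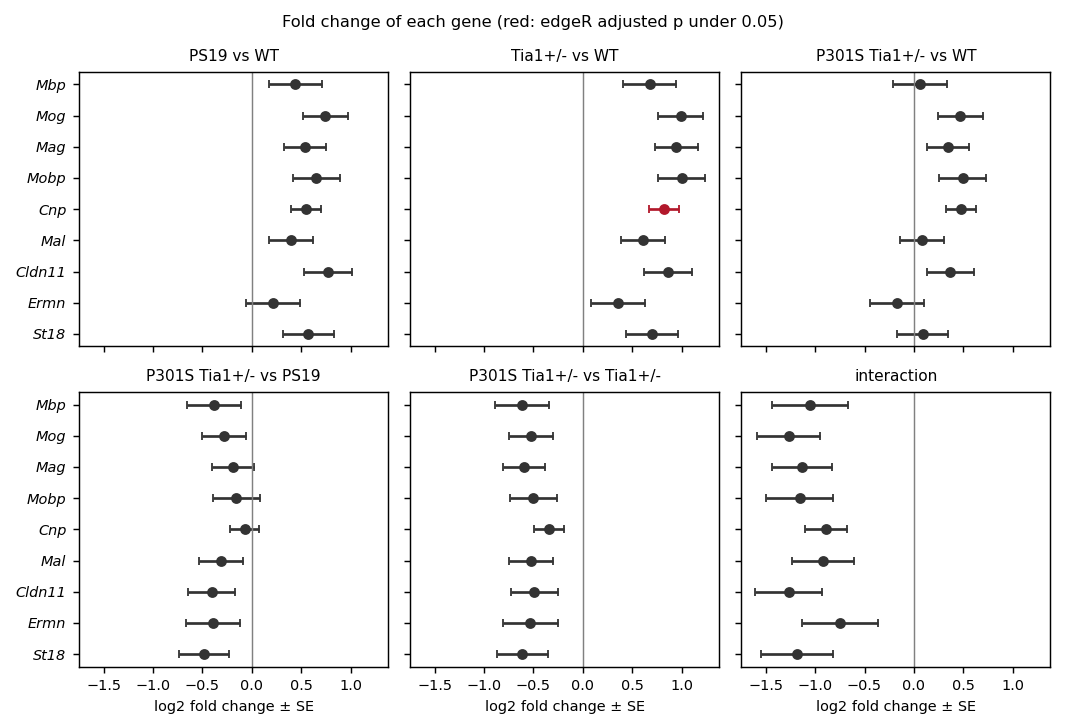
Log2 fold change of each of the 9 genes in the 5 comparisons of groups and in the interaction, with bars of ± SE from edgeR. Positive values are higher in the group named first, and a red point marks an adjusted p under 0.05, which only Cnp in Tia1+/- against WT mice reached (0.82).

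The effect of the tau transgene on the myelin genes was addressed first in mice with both Tia1 copies. In PS19 against WT mice, all 9 genes were higher, as were 49% of all genes, with a median log2 fold change of 0.55 and a range from 0.22 for Ermn to 0.77 for Cldn11. None was called, and 0% of all genes were called in this comparison by edgeR. Cnp was at 148 ± 26.8 CPM in WT and 216 ± 37.4 CPM in PS19 mice (SD, n = 3), a log2 fold change of 0.55 (SE 0.150, adjusted p = 0.170 from edgeR). Mog differed by 0.74 (SE 0.227) and Cldn11 by 0.77 (SE 0.241). The groups did not overlap in 3 of the 9 genes (Mog, Cnp and Cldn11), as in 9.75% of all genes in this direction, and the unadjusted p was under 0.05 in 5 (these 3, Mag and Mobp), as in 6.56%. DESeq2 called Cnp alone of the 9, and 2.77% of all genes. Without the 3 libraries named above, 8 of the 9 were higher, with a median of 0.39, and none was called. All 8 olfactory bulb genes were lower in PS19 mice, with a median log2 fold change of −6.28, none of them called. They summed to between 5.92 and 14.6 CPM in PS19 and between 35.1 and 1023 CPM in WT libraries. The part of olfactory bulb tissue in the result was not tested. Markers of microglia were higher in PS19 mice in all 8 genes of their list, with a median of 0.61, none of them called, and their summed level did not overlap between WT (310 to 334 CPM) and PS19 mice (378 to 627 CPM). PS19 replicate 3, the highest PS19 library for each of the 9 myelin genes, had the lowest microglial sum of the 3, and their part in the result was not tested.

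In Tia1+/- mice the transgene went with lower values. P301S Tia1+/- against Tia1+/- mice had all 9 genes lower, as were 48.9% of all genes, by 0.34 for Cnp to 0.62 for Mbp on the log2 scale, with a median of −0.53. None was called (adjusted p from 0.246 to 0.372 in edgeR), and 0% of all genes were called. Mbp was at 1446 ± 296 CPM in Tia1+/- mice and at 944 ± 48.6 CPM in P301S Tia1+/- mice (SD, n = 3). The 2 groups did not overlap in any of the 9 genes, as in 11.1% of all genes in this direction, and the unadjusted p was under 0.05 in 6, as in 6.66%. Both groups had high Xist, so this comparison was within 1 Xist state. Olfactory bulb genes moved with it, at most 128 CPM in sum in Tia1+/- and at least 634 CPM in P301S Tia1+/- libraries, and their part in the result was not tested. The number of calls depended on the libraries fitted. With only the 6 libraries compared, Mag and Mal were called and 2.22% of all genes. Without the 3 libraries named above, 6 of the 9 genes (Mbp, Mog, Mag, Cnp, Mal and Cldn11) were called, all 9 were lower, and 22.9% of all genes were called. That fit kept all 3 P301S Tia1+/- libraries. The Tia1+/- libraries left in it had 7.59 and 6.57 CPM of olfactory bulb genes in sum, so these genes still separated the 2 groups. Without WT replicate 1 alone, Mog was called, and 6.11% of all genes were called.

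The same loss of 1 Tia1 copy was then compared in mice with the transgene. P301S Tia1+/- against PS19 mice had all 9 genes lower, as were 48.5% of all genes, by 0.074 for Cnp to 0.48 for St18 on the log2 scale, with a median of −0.31. No gene of the 9 was called (adjusted p from 0.326 to 0.808 in edgeR) against 0.24% of all genes. That share depended on the libraries, from 0.0382% without PS19 replicate 2 to 10.3% without WT replicate 1, with 18.7% without the 3 libraries named above and 20.1% with only the 6 libraries compared, and none of the 9 was called in any of these fits. None reached an unadjusted p under 0.05, as 7.62% of all genes did in this direction, and the groups overlapped in all 9, whereas 18.2% of all genes did not overlap in this direction. The difference rested largely on PS19 replicate 3. Without it, Mag, Mobp and Cnp changed sign and the median was −0.14. DESeq2 also called none of the 9. Olfactory bulb genes summed to at most 14.6 CPM in PS19 libraries, against at least 634 CPM in P301S Tia1+/- libraries, and their part in the result was not tested.

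P301S Tia1+/- mice carry both mutations and were compared with WT mice. Of the 9 genes, 8 were higher, as were 53.4% of all genes, with a median log2 fold change of 0.35 and a range from −0.17 for Ermn to 0.50 for Mobp. Without WT replicate 1 alone 5 of the 9 were higher, with a median of 0.15, and without the 3 libraries named above 5 were higher, with a median of 0.12. None was called, against 1.31% of all genes, a share that was 10.5% without WT replicate 1, 25.3% without the 3 libraries and 0.0938% with only the 6 libraries compared, and the lowest adjusted p was 0.129 for Cnp (log2 fold change 0.48, SE 0.150, edgeR). Cnp was at 206 ± 9.98 CPM in P301S Tia1+/- mice (SD, n = 3). Mog, Mag, Mobp and Cnp did not overlap between the groups, as in 12.4% of all genes in this direction, and Cnp alone had an unadjusted p under 0.05, as in 8.57%. Mbp (0.059), Mal (0.083) and St18 (0.087) had log2 fold changes near 0, smaller than their standard errors of 0.271, 0.221 and 0.261, and changed sign without WT replicate 1.

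With groups named by title, the mean levels of the 9 genes were higher in Tia1+/- and in PS19 mice than in WT mice, and the means of the group with both mutations were below either. By the genotype entries, the group with both mutations would instead be the one with the highest means. Whether the 2 mutations added up was tested as an interaction, the effect of Tia1+/- within PS19 mice minus its effect without the transgene. It was negative for all 9 genes, as for 49.5% of all genes, from −0.75 for Ermn to −1.27 for Mog and Cldn11 on the log2 scale, with a median of −1.14. No gene passed (0.00648% of all genes did), and the lowest adjusted p was 0.0694 for Cnp (−0.89, SE 0.212), followed by 0.0732 for Mog (−1.27, SE 0.318), 0.0821 for Mag (−1.14, SE 0.303) and 0.0822 for Cldn11 (−1.27, SE 0.339), all from edgeR. The unadjusted p was under 0.05 in 8 of the 9 genes, as in 9.28% of all genes in this direction, again with the exception of Ermn. With DESeq2, Mog, Mag, Mobp, Cnp, Cldn11 and St18 passed, and 7.63% of all genes did. Without the 3 libraries named above, Mog, Mag, Mobp, Cnp and Cldn11 passed in edgeR, and 11.2% of all genes. Olfactory bulb genes went the other way. Their interaction was positive for all 8 genes of the list, with a median of 10.3 on the log2 scale. None of the 8 passed in edgeR with all 12 libraries, and their part in the result was not tested. The interaction uses the same 12 libraries as the comparisons above and is not separate evidence from them. It rests on the titles, and it was not fitted with the Tia1+/- and P301S Tia1+/- groups exchanged as the genotype entries would have them. The Tia1 label and the Xist level cannot be told apart in it. For the comparisons of 2 groups, an exact permutation test on 1 gene with 3 libraries against 3 cannot go below a 2-sided p of 0.1, while the model takes its spread from all 12 libraries.

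The genes moved together over the 12 libraries. The 36 pairs of the 9 genes had Pearson correlations of log2(CPM + 1) between 0.69 and 0.98, with a median of 0.91 and the highest value for Mag with Mobp. The lowest was for Cnp with Ermn. These are descriptions, as the libraries share genotypes, library preparation and the 4 groups. WT replicate 1 was lowest in all 9 genes, Tia1+/- replicate 1 was highest in 6 and PS19 replicate 3 was highest in the other 3 and among the top 2 libraries in all 9. The mean of the 9 standardized genes followed Mag most closely (r = 0.978) and Ermn least (r = 0.881).

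**Figure D3:**
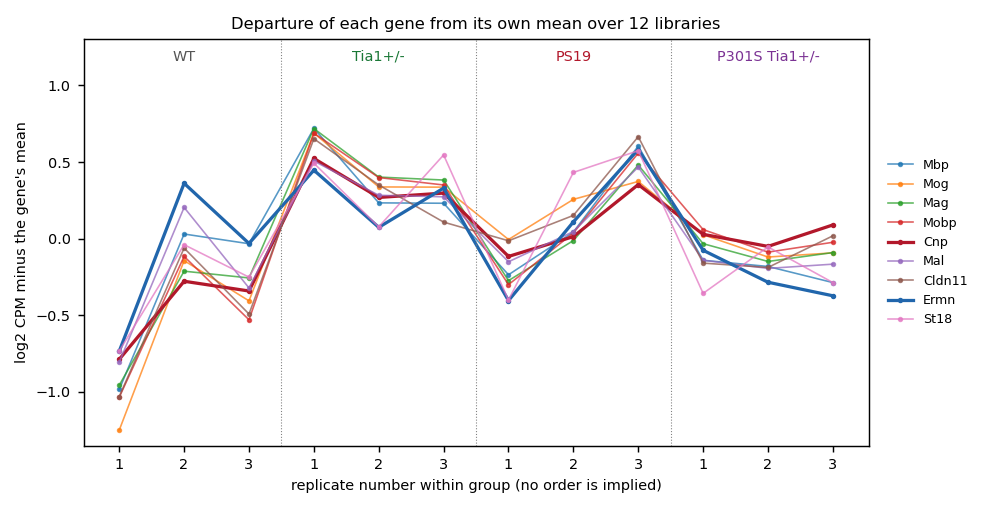
Level of each of the 9 genes (lines) in the 12 libraries, grouped by genotype, as log2 CPM minus the mean of that gene over the 12 libraries, with Cnp in red and Ermn in blue. The lines run close together, with all 9 lowest at WT replicate 1 and high points at Tia1+/- replicate 1 and PS19 replicate 3.

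Of the 15431 other tested genes, the 8 most like this mean over the 12 libraries were Ttyh2 (r = 0.968), Bcas1 (0.966), Tspan2 (0.965), Evi2a (0.963), Tmem63a (0.962), Gpr37 (0.960), Tprn (0.953) and Gjc3 (0.948). The median r of the other genes was −0.02. Bcas1 marks newly myelinating oligodendrocytes, Tspan2 is a tetraspanin of myelin, Gjc3 is a connexin of oligodendrocytes, and Gpr37 is a receptor that is enriched in mature oligodendrocytes. Of the 50 most similar genes, 15 were on one of the other oligodendrocyte lists described next.

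A further 70 genes of the lineage were grouped by role, and all were tested. In Tia1+/- against WT mice, 57 of the 70 were higher, as were 50.7% of all genes, with a median log2 fold change of 0.45. Of the 70, 4 were called, all as higher, against 0.272% of all genes called as higher. With 1 library left out, between 0 (without WT replicate 1, among others) and 9 (without WT replicate 3) of the 70 were called, and with DESeq2 18. The share of all genes called in these fits was, in that order, 0.16%, 3.16% and 6.59%. Among 18 other genes of myelin structure, 17 were higher, with a median of 0.52. Among 15 other genes of mature oligodendrocytes, 12 were higher, with a median of 0.61. Trf, which encodes the iron carrier transferrin, rose by 0.79 (SE 0.150, adjusted p = 0.0446), and Adamts4, a matrix protease, rose by 0.98 (SE 0.187, adjusted p = 0.0446), both in edgeR. Of 10 transcription factors, 9 were higher, with a median of 0.38. Olig1, a factor of the whole lineage, rose by 0.63 (SE 0.0975, adjusted p = 0.0346, edgeR) and Myrf, at a log2 fold change of 0.97 with an adjusted p of 0.0843, did not pass. Like that of Cnp, these calls were lost under most alternatives, as Trf passed in 6, Adamts4 in 4 and Olig1 in 8 of 19.

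Lists of earlier stages and of lipid enzymes had smaller medians in the same comparison. The 10 precursor genes had a median of 0.34 with 7 higher, from Matn4 (−0.89) to Cspg4 (0.75), the NG2 proteoglycan. The 7 genes of newly formed oligodendrocytes had a median of 0.14 with 5 higher, from Tmem2 (−0.43) to Bcas1 (0.74). The 10 genes of myelin lipid synthesis had a median of 0.19 with 7 higher, from Elovl1 (−0.12) to Fa2h (1.33), the fatty acid hydroxylase of myelin galactolipids. None of these 27 genes was called. The medians of neuronal (−0.02, 9 genes), astrocytic (−0.13, 8 genes), microglial (0.13, 8 genes) and endothelial (−0.09, 7 genes) markers lay nearer to 0, with no gene called. The astrocytic and microglial medians were only slightly nearer to 0 than that of newly formed oligodendrocytes. Of these markers, 4 neuronal, 3 astrocytic, all 8 microglial and 1 endothelial were higher. Differences between the lists were not tested.

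**Figure D4:**
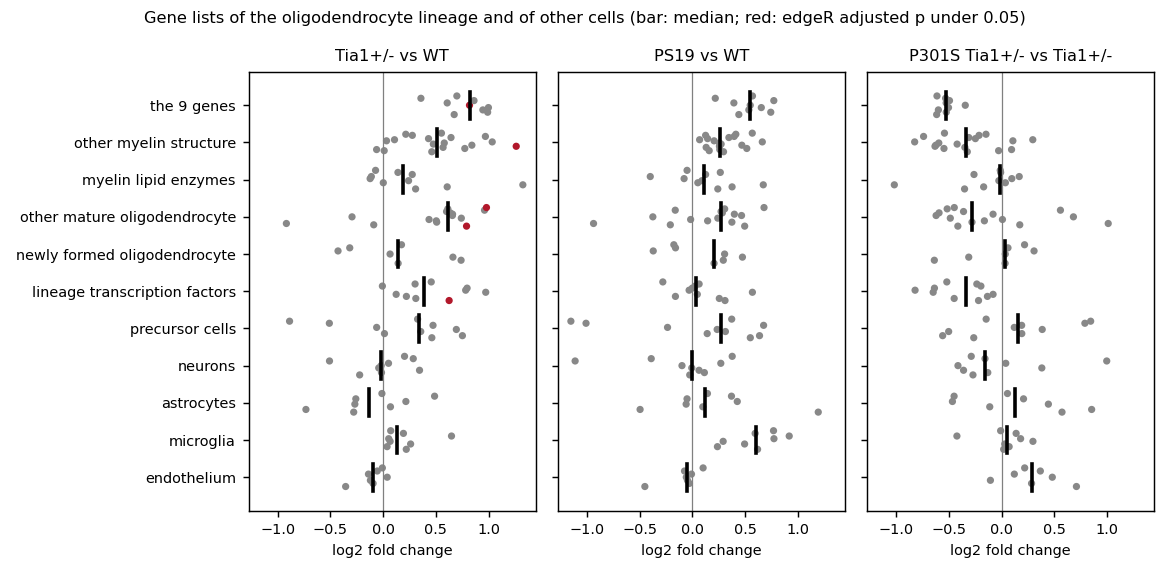
Log2 fold change of each gene (points) and the median of each list (black bars), for the 9 myelin genes, the other oligodendrocyte lists and markers of other brain cells, in Tia1+/- against WT, PS19 against WT and P301S Tia1+/- against Tia1+/- mice. Red points have an edgeR adjusted p under 0.05. In Tia1+/- against WT mice the 9 genes have the highest median of the lists shown, 0.82.

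In the other comparisons edgeR called no gene of the 70 with all 12 libraries. Other fits did, up to 2 in PS19 against WT mice, 9 in P301S Tia1+/- against PS19, 26 in P301S Tia1+/- against Tia1+/-, 12 in P301S Tia1+/- against WT and 18 for the interaction. The highest share of all genes called over those fits was, in the same order, 2.77%, 20.1%, 22.9%, 25.3% and 11.2%. In PS19 against WT mice, 52 were higher, with a median of 0.24, and all 18 myelin structure genes had a positive value, from Cmtm5 (0.069) to Opalin (0.66). In P301S Tia1+/- against Tia1+/- mice, 22 of the 70 were higher, with a median of −0.22, and all 10 transcription factors were lower, from Nkx6-2 (−0.82) to Sox8 (−0.080). In P301S Tia1+/- against PS19 mice, 28 were higher, with a median of −0.03. For the interaction, 18 were higher, with a median of −0.48. Serpina3n and C4b, which rise in oligodendrocytes of several disease models, were on a list of 6 such genes with a median of 0.17 in PS19 against WT mice, and none of the 6 was called in any comparison by edgeR with all 12 libraries.

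Of the 9 genes, 3 share exon bases with another gene in GENCODE M21: Cnp with Dnajc7 on the opposite strand (4.23% of its exon bases), Ermn with Galnt5 on the opposite strand (6.52%) and Mobp with Gm38642 on the same strand (1.15%). How the counting treated strand is not given in the sources used here, so reads from these stretches could be counted for either gene. Cnp lies on chromosome 11 from 100574904 to 100591729 of GRCm38, Mobp on chromosome 9 from 120149707 to 120181484, Mag on chromosome 7 from 30899176 to 30914873 and Mog on chromosome 17 from 37010743 to 37023398.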

How the data were processed

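RNA was extracted from mouse cortex and sequenced in pairs of reads from stranded total RNA libraries. Per the labels, reads were aligned to mm10 by the authors with TopHat2 (2.0.6), and the authors deposited raw counts per gene symbol from featureCounts. The annotation and strand setting are not given in the sources used here. Libraries were grouped by title. Counts were scaled with TMM, filtered with filterByExpr and fitted in edgeR 4.0.16 (R 4.3.3) with a mean per genotype over all 12 libraries, and contrasts were tested by its quasi-likelihood test. p values were adjusted over the 15440 genes tested, with a threshold of 0.05, and standard errors are those of the model. The scripts were tested on simulated data. DESeq2 1.42.0, other filters, a replicate block, fewer libraries and each library left out in turn were tried as alternatives. The 9 genes and all gene lists were chosen with earlier results of these data known. Genes named are the 9, those of other lists past the threshold or at the extremes of their list, and the 8 most similar by correlation. The replicate numbers did not pair the libraries. Not every gene that the rule for named genes gives is reported here.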

Additional observations from a re-analysis of the deposited data

How the results depend on the processing

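The directions of all 9 genes in Tia1+/- against WT mice, in P301S Tia1+/- against Tia1+/- mice and in the interaction were kept under every alternative, but the counts of genes called were not. With the DESeq2 Wald test, the number of the 9 genes called was 1 in PS19 against WT mice, 5 in Tia1+/- against WT mice and 6 for the interaction, against 0, 1 and 0 in edgeR. Over all genes, DESeq2 called 431 in PS19 against WT, 821 in P301S Tia1+/- against PS19, 972 in Tia1+/- against WT, 403 in P301S Tia1+/- against Tia1+/-, 974 in P301S Tia1+/- against WT and 1216 for the interaction, against 0, 37, 110, 0, 203 and 1 in edgeR. With only the 6 libraries compared, 0 of the 9 were called in Tia1+/- against WT and 2 in P301S Tia1+/- against Tia1+/- mice, against 0.0408% and 2.22% of all genes. Without WT replicate 1, Tia1+/- replicate 3 and PS19 replicate 2 together, the counts were 2, 6 and 5 for Tia1+/- against WT, P301S Tia1+/- against Tia1+/- and the interaction. Of all genes, 1.28%, 22.9% and 11.2% were called there. With each library left out in turn the counts ranged from 0 to 1, from 0 to 1 and from 0 to 3, with 3 for the interaction without WT replicate 3 and 1 without WT replicate 1. Those 2 interaction fits called 6.59% and 1.55% of all genes. With the replicate number as a block, 0 of the 9 and 0.0583% of all genes were called in Tia1+/- against WT mice. The numbers did not pair the libraries: of 18 pairs of libraries with the same number, 7 had a correlation of residuals above 0.1 (median −0.0796, from −0.562 to 0.410), and 3 of the 12 libraries correlated best with their own number. Values that changed sign were small. For Ermn in PS19 against WT mice they were −0.0042 without the 3 libraries, −0.017 without WT replicate 1 and −0.052 without PS19 replicate 3, and its values with 1 library left out ran from −0.052 to 0.49. In P301S Tia1+/- against PS19 mice without PS19 replicate 3, Mag was 0.023, Mobp 0.081 and Cnp 0.048, and with 1 library left out they ran from −0.37, −0.36 and −0.20 to these. In P301S Tia1+/- against WT mice, Mbp, Mal and St18 were −0.22, −0.15 and −0.10 without the 3 libraries and −0.19, −0.12 and −0.076 without WT replicate 1, their highest values with 1 library left out being 0.23, 0.38 and 0.24. There Ermn ran from −0.41 without WT replicate 1 to 0.10 without WT replicate 2, and St18 was −0.0077 without P301S Tia1+/- replicate 2. The cause of these changes was not tested. The other filters and the DESeq2 size factors changed no count of the 9 genes.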
